A study of Mus musculus with 4 samples.

Results

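Solute carriers are a large group of membrane transport proteins, and the genes described here are the members of that group measured in sorted cells of the newborn mouse inner ear. Members were all genes of the expression table whose symbol began with Slc and a family number. The known HC and deafness genes *Slc17a8*, *Slc26a4* and *Slc26a5* were set aside by that rule. It gave 202 genes of the 12814 in the table, from 46 families, and all 202 were found in the mm9 gene annotation. The symbol also took in 5 genes that are not carriers themselves, among them the scaffold genes *Slc9a3r1* and *Slc9a3r2*.

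RNA-seq was performed on cells of *Atoh1/nGFP* mice with the strain background C57BL/6, in which a nuclear green fluorescent protein marks the hair cells (HCs), the mechanosensory cells of the ear. From both the cochlea, the organ of hearing, and the vestibular system, the organ of balance, flow cytometry separated HCs, which carry the fluorescent protein and the epithelial surface protein CD326, from epithelial non-sensory cells (ENSCs), which carry CD326 alone. Inner ears of several P1 mice were pooled for a preparation, all 4 populations carried the same transgene, and no treatment was given. Each population was represented by 1 column of the table, taken here as 1 library. The study speaks of triplicates, and whether a column is a single library or a mean of several is not stated. This leaves no replicate error for any value. No test was possible within an organ or a cell type, and none was run across them.

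Solute carriers move ions, nutrients, metabolites and transmitters across the plasma membrane and the membranes of organelles, mostly by coupling the movement of a substrate to an ion gradient or to the exchange of another substrate. In the inner ear they are known for the ion handling that fills the endolymph with potassium, for bicarbonate and proton exchange, for loading transmitter into synaptic vesicles and for supplying the epithelium with glucose and amino acids. They differ widely in where they sit, and the mitochondrial family Slc25 and the Golgi nucleotide sugar family Slc35 serve nearly every cell.

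The value of a gene in a library is a read count that the authors quantile-normalized over the 4 libraries and held at a floor of 20, called its signal here. The median signal of all genes was therefore 120 in every library. Members had medians of 99.75 to 119.25 and made up 1.07% to 1.29% of the summed signal. In cochlear HCs, cochlear ENSCs and vestibular HCs the lowest signals, up to 24.25, 22.75 and 30.5, followed the gene's level in the other libraries, whereas in vestibular ENSCs this range held only the floor of 20. These ranges held 34, 33, 49 and 21 members in cochlear HCs, cochlear ENSCs, vestibular HCs and vestibular ENSCs. A fold against a signal in such a range is given as "at least" and takes the top of the range as divisor. The labels held for the sorted HCs, in which all 8 HC markers lay far above the ENSC signal. *Pou4f3* had 2198.75 in cochlear HCs and 55.25 in the ENSCs beside them, and 2489.5 against 20 for the vestibular pair. The ENSC markers were more mixed. Of the epithelial markers, *Epcam* had 1016.75 in cochlear HCs, 3376.25 in cochlear ENSCs, 1139.25 in vestibular HCs and 7511 in vestibular ENSCs, and *Cdh1* had 6003, 4852.75, 178.5 and 3308.25 in that order. *Cdh1* was thus far higher in ENSCs for the vestibular pair and slightly lower for the cochlear pair. The 8 supporting cell markers summed to 11146.5 and 87004.5 in cochlear HCs and ENSCs, and to 10830.8 and 19622.8 for the vestibular pair. Single genes carried the ENSC sums, *Epyc* with 62028.5 in the cochlea and *Otog* with 10905 in the vestibular system. The medians of the 8 were 1023.12 and 1768.25 for the cochlear pair and 1128.5 and 1022 for the vestibular pair. *Sox2*, with 2659.5 and 2103.75 for the cochlear pair and 3960.75 and 465.75 for the vestibular pair, and *Lfng* were higher in HCs of both organs, and *Tectb* and *Prox1* in vestibular HCs only. *Fgfr3* was slightly higher in cochlear HCs and lay in the lowest range of vestibular HCs. In bulk samples such as these, fewer cells of a type and less RNA per cell cannot be told apart.

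Comparing HCs with ENSCs asks which carriers distinguish the sensory cell from the epithelium around it. In the cochlea 17 of the 202 members (8.42%) had at least 3-fold more signal in HCs, and 21 (10.4%) had at least 3-fold less. Of all 12814 genes, 8.39% were at least 3-fold higher and 9.20% at least 3-fold lower. In the vestibular system 24 members (11.9%) were higher in HCs and 31 (15.3%) lower, beside 13.8% and 14.3% of all genes. The members as a whole thus stood close to the table in both organs. Their median log2 ratio of HC to ENSC was 0.00 for the cochlear pair and -0.16 for the vestibular pair, and that of all genes was 0 and -0.0045. After correction for exonic length and GC content the medians of the members were 0.12 and 0.0081. Individual members differed far more, from -5.72 (*Slc26a7*) to 6.24 (*Slc7a14*) in the cochlea. In 115 members no comparison of cell types or organs reached 3-fold, and 53 members stayed under a signal of 100 in all 4 libraries.

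**Figure D1:**
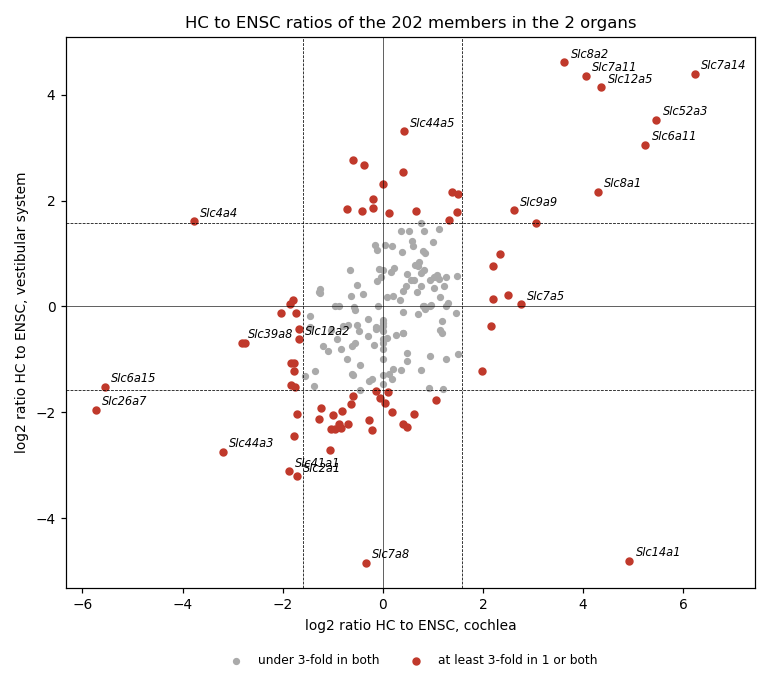
Each point is 1 of the 202 members, with its log2 ratio of HC to ENSC signal in the cochlea on the horizontal axis and in the vestibular system on the vertical axis; dashed lines mark 3-fold, and red points are past 3-fold in 1 or both organs. Beyond both dashed lines, the upper right corner holds the 8 members higher in HCs of both organs. The lower left holds 6 that were lower in both, and *Slc14a1* and *Slc4a4* lie in the opposite corners.

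At least 3-fold more signal in HCs than in ENSCs of both organs was found for 8 carriers, 3.96% of the members beside 4.99% of all genes. They were a lysosomal amino acid carrier of the cationic family (*Slc7a14*), a riboflavin carrier (*Slc52a3*), a GABA carrier (*Slc6a11*), the potassium-chloride cotransporter of neurons (*Slc12a5*), both sodium-calcium exchangers *Slc8a1* and *Slc8a2*, the cystine-glutamate exchanger (*Slc7a11*) and an endosomal sodium-proton exchanger (*Slc9a9*). The promoters of 4 of them, those whose smaller log2 ratio of the 2 organs was highest, are printed because these genes moved together and because the reporter that marked the HCs follows *Atoh1*, a factor that binds E-boxes. The sequences are from the RefSeq promoter table (GRCm38.p6), and each was found at a single place in mm9. Letters in capitals are the E-box core CAGNTG on either strand.
Slc7a14 promoter, chr3:31209192-31209491, minus strand: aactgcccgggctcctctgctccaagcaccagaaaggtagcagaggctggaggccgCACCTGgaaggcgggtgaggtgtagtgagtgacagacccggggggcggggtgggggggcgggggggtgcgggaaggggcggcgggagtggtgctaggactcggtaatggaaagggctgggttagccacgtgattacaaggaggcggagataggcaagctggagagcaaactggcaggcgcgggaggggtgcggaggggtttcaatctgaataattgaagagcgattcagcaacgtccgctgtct
Slc12a5 promoter, upstream start, chr2:164786096-164786395, plus strand: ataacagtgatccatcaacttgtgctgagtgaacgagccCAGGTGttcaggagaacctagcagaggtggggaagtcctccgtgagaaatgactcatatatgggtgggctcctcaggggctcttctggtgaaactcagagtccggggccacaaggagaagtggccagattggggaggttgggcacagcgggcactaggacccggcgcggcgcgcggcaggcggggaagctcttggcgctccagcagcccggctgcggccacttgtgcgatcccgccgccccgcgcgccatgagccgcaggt
Slc12a5 promoter, downstream start, chr2:164793238-164793537, plus strand: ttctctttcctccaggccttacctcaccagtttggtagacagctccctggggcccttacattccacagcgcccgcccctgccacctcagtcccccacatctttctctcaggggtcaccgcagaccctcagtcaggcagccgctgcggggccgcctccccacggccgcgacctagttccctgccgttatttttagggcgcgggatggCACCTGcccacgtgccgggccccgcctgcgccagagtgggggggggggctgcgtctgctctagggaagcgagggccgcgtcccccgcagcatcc
Slc7a11 promoter, chr3:50247486-50247785, minus strand: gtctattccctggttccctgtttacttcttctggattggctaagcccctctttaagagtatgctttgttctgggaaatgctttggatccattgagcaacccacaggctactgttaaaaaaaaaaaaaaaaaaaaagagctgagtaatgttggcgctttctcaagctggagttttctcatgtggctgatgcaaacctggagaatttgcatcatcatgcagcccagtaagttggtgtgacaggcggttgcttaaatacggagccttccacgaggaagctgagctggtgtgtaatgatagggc
Slc8a2 promoter, chr7:16714925-16715224, plus strand: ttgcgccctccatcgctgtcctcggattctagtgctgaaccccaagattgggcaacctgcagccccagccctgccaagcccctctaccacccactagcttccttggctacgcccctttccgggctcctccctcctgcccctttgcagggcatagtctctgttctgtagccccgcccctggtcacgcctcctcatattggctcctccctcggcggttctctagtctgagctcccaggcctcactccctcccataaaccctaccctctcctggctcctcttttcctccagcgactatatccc
The E-box core stood once in the *Slc7a14* promoter and once in each of the 2 *Slc12a5* promoters, and these letters were not in the *Slc7a11* and *Slc8a2* windows. Of the 8 genes, 7 matched the promoter table, with 8 promoters, and *Slc52a3* had no entry. The core was in 5 of these 8 promoters, from 4 genes. Over all members it was in 49.3% of 205 promoters, from the 154 members that matched the table, and over all genes it was in 51.4% of 32851 promoters.

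The study also concerned RFX factors, which bind the X-box, GTTNCCNNGGNAAC, and the same promoters were searched for it on both strands. The study itself reported an RFX motif over-represented in promoters of genes higher in HCs, with ChIP-seq of RFX factors as further evidence. That motif was found de novo and in another promoter window. The search here used a fixed consensus over carriers whether or not higher in HCs, and cannot check that result. An exact X-box was in 0 of the 205 member promoters and in 0.451% of all 32851. With up to 1 mismatch it was in 3 member promoters (1.46%) and in 2.56% of all promoters. For *Slc6a17* the match was at a start site 17278 bases downstream of the annotated gene start, and its promoter at the gene start had 0 matches. For *Slc27a1* it was at a start site 670 bases downstream of the gene start, and its other promoters had 0 matches. These 3 stretches are shown for comparison with the motif, with the mismatch allowed, and none overlapped an E-box core.
Slc27a1, first base at -16 from the start site: GTTGCCGTGGAGAC
Slc4a8, first base at -134 from the start site: GTTTCTAAGGCAAC
Slc6a17, first base at -215 from the start site: GATGCCCAGGTAAC
None of the 3 genes was among the 8 carriers higher in HCs of both organs. *Slc6a17*, a neutral amino acid carrier of synaptic vesicles, had signals of 345.75 in cochlear HCs, 87.5 in cochlear ENSCs, 168.25 in vestibular HCs and 389.75 in vestibular ENSCs, and cochlear HCs were 3.95-fold above cochlear ENSCs. *Slc4a8*, a bicarbonate carrier, had 166.75, 186.75, 234.25 and 105 in that order and stayed under 3-fold. *Slc27a1*, a fatty acid carrier, had signals of 156.75 in cochlear HCs, 181.5 in cochlear ENSCs, 193.5 in vestibular HCs and 976 in vestibular ENSCs, so that only the vestibular ENSC library stood apart.

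*Slc7a14* (chr3:31101832-31209300, minus strand) had the largest HC to ENSC ratio of the members in the cochlea. Its signal was 2363 in cochlear HCs, 31.25 in cochlear ENSCs, 421.5 in vestibular HCs and 20 in vestibular ENSCs. Both HC libraries were high and both ENSC libraries were at or near the floor. Signals listed without their libraries below follow the same order. The ratio was 75.6-fold in the cochlea and at least 21.1-fold in the vestibular system, and cochlear HCs exceeded vestibular HCs 5.61-fold.

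*Slc52a3* (chr2:151822247-151834994, plus strand) had signals of 1039.5, 23.5, 914 and 79.25. Both HC libraries were high, and HCs were 44.2-fold and 11.5-fold above ENSCs. The HC libraries were alike, 1.14-fold apart, and the ENSC libraries were not: vestibular ENSCs were 3.37-fold above cochlear ENSCs, a difference that fell under 3-fold with a floor of 50, with an added pseudocount of 20 and after correction for exonic length and GC content. The thiamine carrier *Slc19a2*, in contrast, was within 3-fold in all comparisons, with 275, 137.75, 225 and 97.25.

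The GABA carrier *Slc6a11* (chr6:114081235-114199880, plus strand) gave 853.75, 22.5, 166.75 and 20. HCs were at least 37.5-fold and at least 8.34-fold above ENSCs, and cochlear HCs were 5.12-fold above vestibular HCs. Both HC libraries were high for this gene and both ENSC libraries were in the lowest range.

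*Slc12a5* (chr2:164786316-164825228, plus strand) had 464.75, 22.5, 353.75 and 20. Both HC libraries were near one another and both ENSC libraries were in the lowest range, which made HCs at least 20.4-fold and at least 17.7-fold higher. Because this cotransporter is known from neurons, the neuron markers are given beside it. HCs were sorted for both the fluorescent protein and CD326, which by the study's account removed possible minor fluorescence of neuronal cells. Of the 5 listed neuron markers, 4 had a value. *Nefl*, *Nefm* and *Snap25* were at 1291 to 2470 in both HC libraries, and *Stmn2* was at 30.75 in cochlear and 22 in vestibular HCs. The 4 genes summed to 5697.75, 252.5, 6703.75 and 80. Their part in the *Slc12a5* signal was not tested.

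The calcium exchangers were represented by *Slc8a1* (chr17:81785359-82048947, minus strand) and *Slc8a2* (chr7:16715509-16745858, plus strand), which extrude calcium in exchange for sodium. *Slc8a1* had 441.5, 22.5, 360.5 and 80.25, and *Slc8a2* had 593.75, 48, 490 and 20. Both were high in both HC libraries and low in both ENSC libraries. In the cochlea HCs were at least 19.4-fold higher for *Slc8a1* and 12.4-fold higher for *Slc8a2*, and in the vestibular system 4.49-fold and at least 24.5-fold. Per kb of exonic length the genes were nearly equal in HCs, *Slc8a2* having 0.944 times the *Slc8a1* signal in the cochlea and 0.954 times in the vestibular system. The remaining exchanger of that family, *Slc8a3*, reached 47.75 in cochlear HCs and was at the floor of 20 in the other 3 libraries.

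Cystine uptake through *Slc7a11* (chr3:50168858-50247535, minus strand) is known to feed glutathione synthesis. This gene had signals of 399.25, 24, 572.25 and 28, high in both HC libraries and just above the lowest signals in both ENSC libraries. HCs were 16.6-fold and 20.4-fold higher. *Slc9a9* (chr9:94570328-95130864, plus strand) had 689, 111.5, 275 and 78, and was thus measurable in all 4 libraries, with HCs 6.18-fold higher in the cochlea and 3.53-fold higher in the vestibular system. After correction for exonic length and GC content the vestibular log2 ratio of *Slc9a9* was 1.54, which is under 3-fold.

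**Figure D2:**
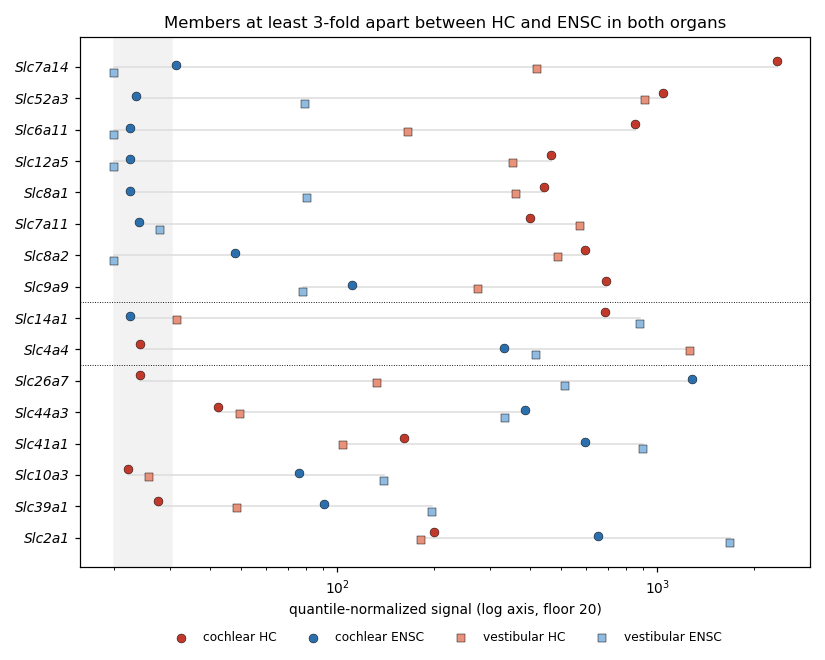
The quantile-normalized signal of 16 members past 3-fold in both organs is plotted on a log axis, with circles for cochlear and squares for vestibular libraries, red for HCs and blue for ENSCs; each point is 1 library and the shaded band runs from the floor of 20 to 30.5. The upper 8 genes have both HC points to the right of both ENSC points, the lower 6 have the reverse, and *Slc14a1* and *Slc4a4* between the dotted lines cross over between organs.

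At least 3-fold less signal in HCs of both organs was found for 6 carriers, 2.97% of the members beside 4.66% of all genes. They were the anion exchanger *Slc26a7*, the glucose carrier *Slc2a1*, the magnesium carrier *Slc41a1*, the choline carrier-like *Slc44a3*, the zinc carrier *Slc39a1* and *Slc10a3*, a relative of the bile acid carriers. *Slc26a7* (chr4:14429577-14548952, minus strand) had 24.25 in cochlear HCs, 1281.75 in cochlear ENSCs, 132.75 in vestibular HCs and 512.75 in vestibular ENSCs. The ENSC libraries were high in both organs, at least 52.9-fold above HCs in the cochlea and 3.86-fold in the vestibular system.

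*Slc2a1*, the glucose carrier of many barrier tissues, had 200, 654.25, 182.75 and 1691.25. The HC libraries were alike and the vestibular ENSC library was highest, with ENSCs 3.27-fold and 9.25-fold above HCs. The cochlear log2 ratio was -1.71 and became -1.53, under 3-fold, after correction for exonic length and GC content. *Slc41a1* followed the same order, with 161.5, 593, 104 and 902, and ENSCs were 3.67-fold and 8.67-fold higher. *Slc44a3* had 42.25, 386.25, 49.75 and 334.5, with ENSCs 9.14-fold and 6.72-fold higher and little between organs. *Slc39a1*, with 27.5, 90.75, 48.5 and 198, and *Slc10a3*, with 22.25, 75.75, 25.75 and 140.25, were low throughout. After correction for exonic length and GC content *Slc39a1* was under 3-fold in both organs (log2 ratios -1.52 and -1.35) and *Slc10a3* in the cochlea (-1.55), and a floor of 50 took both cochlear ratios and the vestibular ratio of *Slc10a3* under 3-fold. Of 40 stretches of the *Slc39a1* transcript, 17 were also found elsewhere in mm9, so its level is uncertain.

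Genes of other cell types also differed between the ENSC and HC libraries. Mesenchyme markers, of which 6 of 8 listed had a value, summed to 1046.25 in cochlear HCs, 20429.5 in cochlear ENSCs, 226 in vestibular HCs and 4100 in vestibular ENSCs. The 5 Schwann cell markers summed to 757.25, 1284.5, 282 and 1874, again higher in both ENSC libraries. The only endothelial marker of 4 with a value, *Kdr*, had 1461.75 in vestibular ENSCs and at most 29.75 elsewhere. *Cd68*, the only leukocyte marker of 4 with a value, was at most 24.75, and none of the listed erythroid and melanocyte markers had a value. The sort that gave the ENSCs kept cells with CD326, and cells without it went to a separate fraction. The part of these cells in the carriers higher in ENSCs, *Slc2a1* included, was not tested.

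Opposite directions in the organs, by at least 3-fold in each, were seen in 2 members. *Slc14a1*, a urea carrier, was higher in HCs of the cochlea and lower in HCs of the vestibular system, a pattern of 0.495% of the members and 0.109% of all genes. It had 684 in cochlear HCs, 22.5 in cochlear ENSCs, 31.5 in vestibular HCs and 884.75 in vestibular ENSCs. Cochlear HCs and vestibular ENSCs were high and the other 2 libraries were at or just above the lowest range. Cochlear HCs exceeded cochlear ENSCs at least 30.1-fold, and vestibular HCs were 28.1-fold below vestibular ENSCs.

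*Slc4a4*, the electrogenic sodium-bicarbonate cotransporter, showed the reverse, as did 0.297% of all genes. Its signals were 24.25 in cochlear HCs, 332.75 in cochlear ENSCs, 1267.5 in vestibular HCs and 416.75 in vestibular ENSCs. Cochlear HCs alone were at the bottom of the range. They were at least 13.7-fold below cochlear ENSCs and at least 52.3-fold below vestibular HCs. The vestibular HC library was 3.04-fold above vestibular ENSCs, just past the threshold, and this difference was under 3-fold with a pseudocount of 20 (log2 ratio 1.56) and after correction for exonic length and GC content (1.13).

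Carriers were next taken by family. Beside the counts of each family stand the shares of all genes past 3-fold, which were 8.39% higher and 9.20% lower in cochlear HCs and 13.8% and 14.3% in vestibular HCs. With so few members in a family these counts are descriptions only. Among the 6 cation-chloride cotransporters, which set the chloride and potassium content of cells, *Slc12a2* was the most abundant in every library, with 4701, 15030.5, 5240 and 8051.25. This sodium-potassium-chloride cotransporter is required for the secretion of endolymph. Cochlear ENSCs held the highest signal, 3.20-fold above cochlear HCs, whereas vestibular ENSCs were 1.54-fold above vestibular HCs. Per kb it exceeded *Slc12a5*, which moves chloride the other way, 11.1-fold in cochlear and 16.3-fold in vestibular HCs.

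The potassium-chloride cotransporter *Slc12a7* is known from deafness in mice. It had 244.5, 116.75, 59.25 and 200.75, lowest in vestibular HCs, which were 4.13-fold below cochlear HCs and 3.39-fold below vestibular ENSCs. The latter difference was under 3-fold with a pseudocount of 20 and after correction for exonic length and GC content. *Slc12a4* and *Slc12a9* did not exceed 66 in any library.

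Acid-base and anion exchangers numbered 17, of which 2 (11.8%) were higher and 4 (23.5%) lower in HCs in each organ, beside all-gene shares of 8.39% and 9.20% (cochlea) and 13.8% and 14.3% (vestibular). Their log2 ratios had medians of -0.16 (cochlear) and -0.70 (vestibular), and of -0.26 and -0.18 after correction for exonic length and GC content. The bicarbonate cotransporter *Slc4a7* was the most abundant of them per kb in cochlear HCs, and its signals of 1710.5, 1502.75, 1353 and 612 were lowest in vestibular ENSCs, with no ratio past 3-fold. *Slc4a2*, a widely expressed anion exchanger, had 41.25, 73.5, 42.5 and 208 and was highest in vestibular ENSCs. These exceeded vestibular HCs 4.89-fold, and the ratio was under 3-fold after correction for exonic length and GC content. *Slc9a2*, a proton exchanger, was a carrier of cochlear HCs, with 212.25, 46.25, 33.75 and 20, and was 4.59-fold above cochlear ENSCs and 6.29-fold above vestibular HCs.

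Of the 7 calcium exchangers, *Slc8a1* and *Slc8a2* were the only members past 3-fold between HCs and ENSCs, and none was at least 3-fold lower in HCs. The 2 higher genes were 28.6% of the group in each organ, beside 8.39% (cochlea) and 13.8% (vestibular) of all genes. The log2 ratios of the group had a median of 0.94 for cochlear and 0.00 for vestibular cells. The cochlear median was that of *Slc24a5*, with 38.5 in cochlear HCs and the floor of 20 in every other library. Exons of a gene on the opposite strand cover 39.5% of its exonic bases. The vestibular median was that of genes at the floor of 20 in both libraries. These medians thus rest on low signals and do not describe the group. *Slc24a3*, a potassium-dependent sodium-calcium exchanger, had 288.75, 336.5, 90.25 and 234.75 and was lowest in vestibular HCs, 3.20-fold below cochlear HCs. That difference was under 3-fold with a pseudocount of 20 and after correction for exonic length and GC content. Its relative *Slc24a2* had 20, 20, 104.75 and 64.75, so that neither cochlear library rose above the floor.

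Amino acid and peptide carriers formed a group of 29 with a median log2 ratio of 0.59 for cochlear and 0.06 for vestibular cells. Both medians were 0.68 after correction for exonic length and GC content. Cochlear HCs had 4 higher (13.8%) and 3 lower members (10.3%), beside 8.39% and 9.20% of all genes. Vestibular HCs had 6 higher (20.7%) and 3 lower (10.3%), beside 13.8% and 14.3%. The large neutral amino acid carriers *Slc7a5* and *Slc7a8*, which share the heavy chain *Slc3a2*, differed in which library stood apart. *Slc7a5* had 173.5, 25.5, 218.75 and 213.25, low only in cochlear ENSCs, which were 6.80-fold below cochlear HCs and 8.36-fold below vestibular ENSCs. *Slc7a8* had 69, 86.75, 29.75 and 854.75, high only in vestibular ENSCs, at least 28-fold above vestibular HCs and 9.85-fold above cochlear ENSCs. Per kb *Slc7a8* exceeded *Slc7a5* 3.49-fold in vestibular ENSCs, while *Slc7a8* lay in the lowest range of vestibular HCs. The heavy chain *Slc3a2* had 393, 204.75, 315 and 602.5, with no ratio past 3-fold.

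*Slc43a1*, a further large neutral amino acid carrier, had 179, 21.5, 163.25 and 55, and cochlear HCs exceeded cochlear ENSCs at least 7.87-fold. The glutamine and alanine carrier *Slc38a2* was the most abundant member of this group in every library, with 5597.5, 8625, 5597.5 and 13508.5, and per kb it exceeded its relative *Slc38a1* 4.72-fold to 15.3-fold. The glutamate carriers of glia were present at low to moderate signal. *Slc1a3* had 262.5, 347.25, 615 and 525.75 and *Slc1a2* had 50.75, 38.75, 111.25 and 54.25. Neither reached 3-fold in any comparison.

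The Slc6 and vesicular transmitter families had 15 members. Cochlear HCs had 4 higher members and 1 lower, 26.7% and 6.67% of the group beside 8.39% and 9.20% of all genes. Vestibular HCs had 3 higher and 0 lower, the all-gene shares being 13.8% and 14.3%. *Slc6a15* (chr10:102830477-102882011, plus strand), a neutral amino acid carrier, had 61.5, 2875.5, 60.75 and 174.75. It was high in cochlear ENSCs alone, 46.8-fold above cochlear HCs and 16.5-fold above vestibular ENSCs. *Slc18a2*, the vesicular monoamine carrier, had 190, 120, 618.75 and 176.75 and was highest in vestibular HCs, 3.50-fold above vestibular ENSCs and 3.26-fold above cochlear HCs. The first of these was under 3-fold after correction for exonic length and GC content. *Slc17a6*, a vesicular glutamate carrier of neurons, did not exceed 47.75, and the glycine carrier *Slc6a9* did not exceed 41.25. The other listed vesicular carriers *Slc17a7*, *Slc18a3* and *Slc32a1* had no value in the table.

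Metal carriers numbered 25. In cochlear HCs 1 was higher and 4 (16%) lower, beside 8.39% and 9.20% of all genes, and in vestibular HCs 0 were higher and 6 (24%) lower, beside 13.8% and 14.3%. Their medians were -0.46 and -0.50, and -0.39 and -0.47 after correction for exonic length and GC content. *Slc39a8*, which takes up zinc and manganese, had 265, 1858.75, 63.25 and 101.5, and cochlear ENSCs were 7.01-fold above cochlear HCs. The iron importer *Slc11a2* stayed within 249.75 to 404.25, and the iron exporter *Slc40a1* did not exceed 68.5. The zinc exporter *Slc30a4* had 471.5, 1124.25, 1148 and 910.75, lowest in cochlear HCs, with no ratio past 3-fold.

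Sugar carriers numbered 12, with median log2 ratios of -0.12 for cochlear and -0.23 for vestibular cells. After correction for exonic length and GC content these medians were -0.19 and 0.32, so the vestibular one changed sign. Beside *Slc2a1*, the myo-inositol carrier *Slc5a3* stood out in vestibular HCs. Its signals were 2150.75, 2476.5, 7511 and 2070.75, so that vestibular HCs were 3.63-fold above vestibular ENSCs and 3.49-fold above cochlear HCs. The first ratio was under 3-fold after correction for exonic length and GC content (log2 ratio 1.14). Of its exonic bases 11.2% overlap exons of other genes on the same strand, *Mrps6* among them, so its level is uncertain to that extent.

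Among 11 carriers of vitamins and choline, *Slc44a1*, the main choline carrier, had 2777.75, 8852, 3315.5 and 4482.75 and was highest in cochlear ENSCs, 3.19-fold above cochlear HCs. *Slc44a2* had 327.5, 495.5, 196.75 and 633.5, and vestibular ENSCs were 3.22-fold above vestibular HCs, under 3-fold after correction for exonic length and GC content. *Slc44a5* had 216.5, 160.75, 215.75 and 21.75, low only in vestibular ENSCs, which were 9.92-fold below vestibular HCs and 7.39-fold below cochlear ENSCs. *Slc33a1*, the acetyl-CoA carrier, had 202.25, 492.5, 117.75 and 97.5 and was highest in cochlear ENSCs, 5.05-fold above vestibular ENSCs. Exons of a gene on the opposite strand cover 32% of its exonic bases.

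The 30 mitochondrial carriers were the largest family, with 0 higher and 1 lower (3.33%) in cochlear HCs, beside 8.39% and 9.20% of all genes. In vestibular HCs 2 were higher (6.67%) and 3 lower (10%), beside 13.8% and 14.3%, and the median log2 ratio was 0.06 in both organs. *Slc25a4*, the adenine nucleotide carrier of excitable tissue, had 10905, 10581.5, 13361.5 and 6003. Its relative *Slc25a5* had 454.25, 499.75, 892.25 and 1170.75, highest in vestibular ENSCs. Per kb *Slc25a4* exceeded *Slc25a5* 16.8-fold in cochlear HCs, 14.8-fold in cochlear ENSCs, 10.5-fold in vestibular HCs and 3.59-fold in vestibular ENSCs. Of 30 stretches of the *Slc25a5* transcript, 12 were also found elsewhere in mm9, so the level of this gene is uncertain.

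Nucleotide sugar carriers, 18 in number, had 0 higher and 1 lower member (5.56%) in HCs of each organ, beside 9.20% (cochlea) and 14.3% (vestibular) of all genes lower. The lower member in the cochlea was *Slc35f1*, with 149, 1006, 321.5 and 519.75 and a 6.75-fold difference. Monocarboxylate and dicarboxylate carriers had 1 higher and 0 lower member in the cochlea and 2 higher and 1 lower in the vestibular system. Of these the lactate carrier *Slc16a1* had 112.75, 66.25, 150.5 and 344.5 and was 5.20-fold higher in vestibular than in cochlear ENSCs. *Slc16a10*, a carrier of aromatic amino acids, had 388.25, 443.25, 470.5 and 114.75, low only in vestibular ENSCs. *Slc10a7*, a relative of the bile acid carriers, had 130.5, 169.25, 724.5 and 113, high only in vestibular HCs, 6.41-fold above vestibular ENSCs and 5.55-fold above cochlear HCs.

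The smaller groups were as follows. Of 7 carriers of organic ions, *Slc22a23* had the highest signal per kb in both cochlear libraries, with 1442, 648.75, 573.25 and 508, highest in cochlear HCs and under 3-fold in every comparison. *Slc22a15* had 65.25, 133.25, 25.5 and 126.75 and was lowest in vestibular HCs, at least 4.16-fold below vestibular ENSCs. Of 4 fatty acid carriers, *Slc27a1* and *Slc27a2* exceeded 100 in a library, and *Slc27a2*, with 48, 166.5, 92.5 and 85.25, was highest in cochlear ENSCs. All 3 phosphate carriers were lower in vestibular HCs than in vestibular ENSCs. In 2 of them (66.7%) the difference was at least 3-fold, beside 14.3% of all genes. Of these 2, *Slc20a2*, with 88, 155.5, 75.75 and 298, was under 3-fold after correction for exonic length and GC content (-1.27). Among 3 nucleoside carriers, *Slc28a3*, with 20.5, 30.75, 135.75 and 20, was above the lowest range only in vestibular HCs and marginally in cochlear ENSCs.

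The remaining members past 3-fold were mostly of low signal. With a floor of 50 the differences given for *Slc18a1*, *Slc13a4*, *Slc39a2*, *Slc1a5*, *Slc43a3*, *Slc17a2*, *Slc25a14*, *Slc28a3* and *Slc22a15* were all under 3-fold. Higher in cochlear HCs than in cochlear ENSCs were the vesicular monoamine carrier *Slc18a1* with 100.75, 20, 39.75 and 20, the sulfate carrier *Slc13a4* with 114, 20.25, 23.25 and 20, and the zinc carrier *Slc39a2* with 92.5, 20, 22 and 20. For each the cochlear HC library was the highest of the 4. Cochlear HCs exceeded cochlear ENSCs at least 4.43-fold, at least 5.01-fold and at least 4.07-fold in these 3 genes.

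Past 3-fold in vestibular HCs against ENSCs were the glutamine carrier *Slc1a5* with 26.5, 20, 116.75 and 20, *Slc43a3* with 20, 32.75, 106 and 29.75 and *Slc17a2* with 20, 20, 99.25 and 20. These signals were at or close to the lowest range in the other 3 libraries. The mitochondrial iron carrier *Slc25a37* had 983.25, 392.5, 943 and 305.5, and so was abundant in every library and higher in HCs of both organs, past 3-fold for the vestibular pair only and not with a pseudocount of 20. *Slc25a14* was similar at lower signal, with 101.25, 36.25, 126.25 and 36.75. After correction for exonic length and GC content its cochlear log2 ratio was 1.60, past 3-fold as well.

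Among members lower in HCs, the calcium-regulated mitochondrial carrier *Slc25a24* had 214.25, 767, 168.25 and 353.25, the peptide carrier *Slc15a2* had 164.25, 560.5, 262.5 and 547.75, and the sulfate carrier *Slc26a2* had 112.75, 382.25, 194.25 and 555. In all 3 genes both ENSC libraries were above both HC libraries, with only the cochlear difference past 3-fold in the signals as given. After correction for exonic length and GC content the vestibular log2 ratios were -1.59, -1.70 and -1.94, which are past 3-fold too. *Slc7a2*, a cationic amino acid carrier, had 42.25, 173.75, 26.75 and 29.25 and was high only in cochlear ENSCs. Highest in vestibular ENSCs were the glutamate carrier *Slc1a1* with 27.5, 20.75, 24.75 and 115.5, the mitochondrial citrate carrier *Slc25a1* with 21.75, 35.25, 25 and 117.25, the heme carrier *Slc48a1* with 156, 111.25, 77 and 375 and the scaffold gene *Slc9a3r1* with 65.75, 154.25, 122 and 461.25. The lowest range was shared by *Slc25a1* and *Slc1a1* in vestibular HCs, which makes their vestibular differences at least 3.84-fold and at least 3.79-fold. After correction for exonic length and GC content the vestibular log2 ratios of *Slc25a1* (-0.87), *Slc48a1* (-1.27) and *Slc9a3r1* (-0.73) were under 3-fold, and with a floor of 50 that of *Slc1a1* was.

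**Figure D3:**
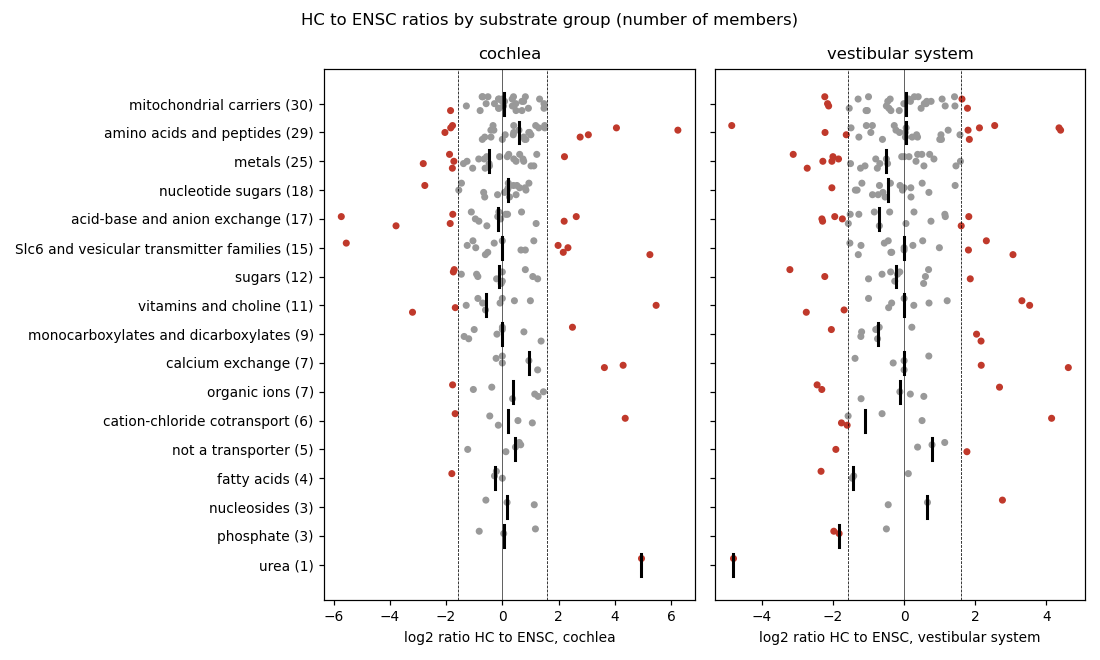
Each point is 1 member, placed by its log2 ratio of HC to ENSC signal in the cochlea (left) and the vestibular system (right), in rows by substrate group with the number of members in parentheses; red points are past 3-fold, dashed lines mark 3-fold and the black bar is the median of the row. The 30 mitochondrial carriers and 18 nucleotide sugar carriers lie mostly inside the dashed lines, and the calcium exchangers have 2 points far to the right in each organ.

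The organs were compared within each cell type to ask which carriers tell cochlear from vestibular cells. Between HCs, 11 members (5.45%) had at least 3-fold more signal in the cochlea and 13 (6.44%) at least 3-fold less, beside 4.21% and 5.09% of all genes. Between ENSCs, 9 members (4.46%) were higher in the cochlea and 18 (8.91%) lower, beside 7.80% and 7.94% of all genes. The median log2 ratio of cochlea to vestibular system was 0.0025 in HCs and -0.04 in ENSCs. These comparisons use the same 4 libraries as those between cell types.

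Cochlear HCs exceeded vestibular HCs most in *Slc14a1* (21.7-fold), *Slc9a2*, *Slc7a14*, *Slc6a11*, *Slc39a8* (4.19-fold) and *Slc12a7*, among members whose higher library of the pair reached 200. With that limit vestibular HCs exceeded cochlear HCs most in *Slc4a4*, *Slc10a7*, *Slc25a25*, *Slc5a3* and *Slc18a2*. *Slc26a7*, at 132.75 in vestibular and 24.25 in cochlear HCs, was at least 5.47-fold higher in vestibular HCs and under 3-fold with a floor of 50.

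By the same limit, cochlear ENSCs exceeded vestibular ENSCs most in *Slc39a8* (18.3-fold) and *Slc6a15*, followed by the glucose carrier *Slc2a10* (6.52-fold), *Slc33a1* and *Slc16a10*. In *Slc2a10* the signals were 77.5, 259, 36.5 and 39.75, so that cochlear ENSCs stood alone. With the same limit, vestibular ENSCs exceeded cochlear ENSCs most in *Slc14a1* (at least 38.9-fold), *Slc7a8*, *Slc34a2*, *Slc7a5*, *Slc27a1* (5.38-fold) and *Slc16a1*. The *Slc27a1* difference was under 3-fold after correction for exonic length and GC content. *Slc34a2*, a phosphate carrier of secretory epithelia, had 22.5, 21.75, 57 and 202.25 and was at least 8.89-fold higher in vestibular ENSCs.

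Markers of the secretory and roof epithelium differed in the same direction as these last genes. *Oc90* had 463.25, 5341.75, 644.25 and 37323.8, and the dark and marginal cell markers *Kcne1* and *Kcnq1*, 2 of 2 with a value, summed to 46.25, 189, 55.25 and 812.25. *Kdr* was also highest in vestibular ENSCs. Their part in the differences between ENSC libraries was not tested.

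Members at least 3-fold apart between organs in both cell types were few. *Slc39a8* was the only member at least 3-fold higher in the cochlea in both HCs and ENSCs, a pattern of 1.14% of all genes. *Slc24a2* and *Slc25a25* were lower in the cochlea in both, as were 1.23% of all genes. For *Slc24a2* the ENSC difference was only at least 2.85-fold once taken against the top of the lowest range, and with a floor of 50 both of its differences were under 3-fold. *Slc25a25*, a calcium-regulated mitochondrial carrier of ATP and phosphate, had 153.25, 252, 578.75 and 1158.25, highest in vestibular ENSCs. The vestibular libraries were 3.78-fold higher for HCs and 4.60-fold higher for ENSCs, the latter under 3-fold after correction for exonic length and GC content.

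**Figure D4:**
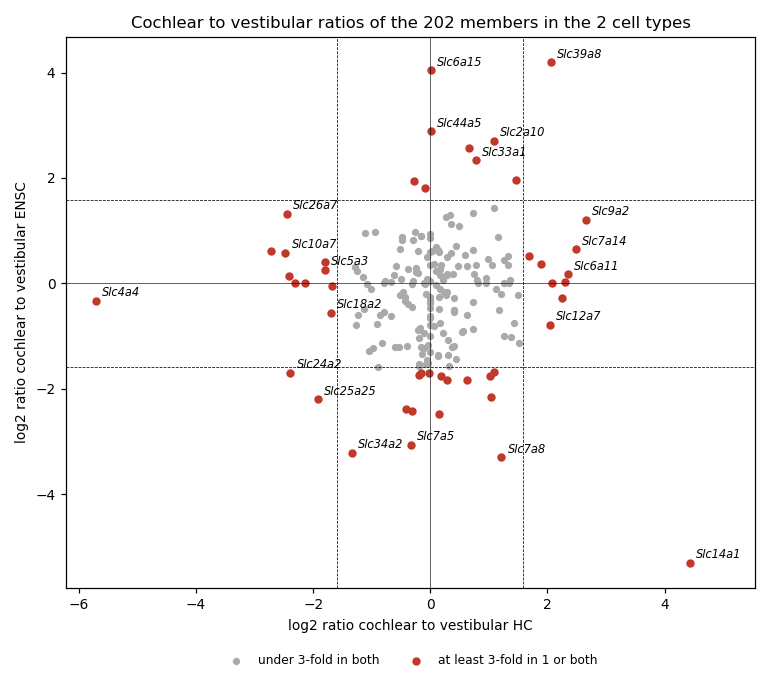
Each point is 1 of the 202 members, with its log2 ratio of cochlear to vestibular signal in HCs on the horizontal axis and in ENSCs on the vertical axis; dashed lines mark 3-fold and red points are past 3-fold in 1 or both cell types. Beyond both dashed lines, *Slc39a8* lies alone in the upper right, *Slc24a2* and *Slc25a25* in the lower left, and *Slc14a1* in the lower right.

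Levels between genes were compared only per kb of exonic length. By this measure *Slc25a4*, *Slc25a17*, *Slc38a2* and *Slc12a2* were the leading carriers in all 4 libraries, in differing order. *Slc25a4* led in cochlear HCs (4635 per kb), cochlear ENSCs and vestibular HCs, and *Slc38a2* led in vestibular ENSCs (2920.1 per kb). The fifth place differed between libraries and was held by the phosphate carrier *Slc25a3* in cochlear HCs (635 per kb), *Slc44a1* in cochlear ENSCs (1273 per kb), *Slc5a3* in vestibular HCs (688 per kb) and *Slc25a5* in vestibular ENSCs (711 per kb). The members highest in HCs against ENSCs lay below these, *Slc52a3* at 376 per kb, *Slc7a14* at 242 per kb and *Slc6a11* at 210 per kb in cochlear HCs.

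Of 36 carriers listed for a known link to the inner ear or to HCs, all but 7 had a value, and *Slc22a4*, *Slc26a6*, *Slc4a11* and *Slc52a2* were among those 7. All values rest on 1 column per population, and the sequencing depth behind them is unknown. Over members above the floor, the Spearman correlation of the ratio with GC content was 0.17 (n = 164) for HC against ENSC in the cochlea, -0.28 (n = 164) in the vestibular system, 0.16 (n = 168) between HCs and -0.42 (n = 165) between ENSCs. Over all genes it was -0.04 (n = 10735), -0.40 (n = 10365), 0.02 (n = 10861) and -0.45 (n = 10483). These points share their libraries.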

How the data were processed

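Per the labels, cells of *Atoh1/nGFP* mice were sorted by flow cytometry, and NuGEN Ovation chemistry served for amplification of the RNA. For extraction the labels name the RNeasy Plus Micro kit, whereas the study's methods name TRIzol LS and the Direct-zol kit for the sequenced samples. The authors used TopHat to align the first 50 nt of reads to mm9 and HTSeq to count them over ENSEMBL genes, kept covered genes, quantile-normalized the columns and set a floor of 20. The deposited values are therefore a signal per gene and not counts. Versions, the strand setting and the depth are not given in the sources used here. The design text speaks of triplicates, and the table analysed here held 1 column for each population. Columns named for non-HCs were matched to the ENSC samples.

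With 1 column per population, taken as 1 library, log2 ratios of the signal were computed with no pseudocount, and genes at least 3-fold apart were counted. The lowest range of a library ended at the last signal before the median of its genes' highest signal elsewhere collapsed. GENCODE for NCBIM37 (mm9) gave positions, exonic length and GC content. The scripts, checked on simulated data, used Python 3.11.15, numpy 2.4.6, pandas 2.3.3 and statsmodels 0.14.6.

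Members were named by 4 criteria. These were the 6 largest ratios in each direction and comparison among members past 3-fold with a signal of at least 200, opposite directions in the organs, the 5 highest signals per kb in each library, and a list with a known link to the ear. Other members named, such as *Slc43a1*, *Slc3a2* and those described as of low signal or of the smaller groups, were picked once their signals were known, and some members that the criteria name are not reported here. The members and lists were chosen with earlier results of these data known. Alternatives were a threshold of 2, a floor of 50, a pseudocount of 20, the lowest range raised to its top, centring, a minimum of 100, and correction for exonic length and GC content (local regression over 0.3 of genes, 2 iterations).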

Additional observations from a re-analysis of the deposited data

Results flagged for a closer look

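In 2 members the HC library stood above the ENSC library of the same organ by at least 3-fold in one organ and below it by at least 3-fold in the other. For *Slc14a1* the HC to ENSC log2 ratio in the vestibular system minus that in the cochlea was -9.74. For *Slc4a4* the same difference was 5.38. Both use the signals as given. The cochlear ENSC signal of *Slc14a1* (22.5) and the cochlear HC signal of *Slc4a4* (24.25) lay in the lowest range, so the cochlear ratios are known only as bounds. With 1 library per population neither difference between organs was tested.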

How the results depend on the processing

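Counts of members past the threshold stayed within 1.5 times the reported count except as follows. With a threshold of 2 they were 40 higher and 37 lower in cochlear HCs against ENSCs, 40 and 60 in vestibular HCs against ENSCs, 34 and 24 in cochlear against vestibular HCs, 17 and 48 in cochlear against vestibular ENSCs, and 14 higher and 20 lower in HCs of both organs. A floor of 50 gave 15 higher and 18 lower in vestibular HCs against ENSCs, and 7 higher and 5 lower in cochlear against vestibular HCs. A pseudocount of 20 gave 15 higher and 20 lower in vestibular HCs against ENSCs and 11 lower in cochlear against vestibular ENSCs, and correction for exonic length and GC content also gave 11 for the latter. The same correction moved medians of the log2 ratios, as that of the sugar carriers from -0.23 to 0.32 in the vestibular system. A floor, a pseudocount or a raised lowest range shrinks ratios of low signals by construction. The cause of the other shifts was not tested. Among the ratios of members named by the criteria or in the text, 33 fell under 3-fold with the floor of 50, 27 with the pseudocount, 3 with the lowest range raised to its top, 1 with centring and 25 with the correction, which also brought 10 past 3-fold, as centring did 2. No ratio changed sign past the threshold under these settings. Pairing of HCs with ENSCs was possible only by organ, and no paired analysis was run. Because each population had 1 library, no library could be left out. Depth is unknown, so signals near the floor of 20 set only a lower bound on a fold.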
